A study of Mus musculus with 9 samples.

Results

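The G2/M and mitosis genes are the transcripts whose proteins carry a cell from the end of DNA replication through chromosome segregation and division. A list of 57 mouse genes was read from the table of 14461 genes, and a gene was tested where 3 or more libraries reached a value of 1. All 57 had a row and all 57 met that rule, as did 13771 genes of the table. RNA was sequenced from LSK cells, the bone marrow fraction that lacks lineage markers, carries Sca-1 and c-Kit, and holds blood stem cells and multipotent progenitors, sorted from parabiotic mice, which are joined by surgery so that blood passes between them. There were 3 groups of 3 libraries. Circulating LSK cells and irradiated LSK cells were labelled with the strain C57BL/6, and endogenous LSK cells with the strain B6SJL CD45.1. Per the series design, circulating cells had reached the marrow of an irradiated partner. All mice were labelled specific pathogen free. The sources used here do not give the radiation dose, the time after surgery or irradiation, or the age and sex of the mice. Because the strain label changes together with the group in every comparison with endogenous cells, strain and group cannot be told apart there. The sample titles also give circulating and irradiated libraries the code DD and endogenous libraries the code SJ, without saying what the codes mean. Whatever they mark changes with the group in those comparisons too and cannot be told apart from it.

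In a dividing cell, cyclin A and cyclin B bind the kinase CDK1 and switch on entry into mitosis, and the phosphatases of the CDC25 family remove the inhibitory phosphate that holds CDK1 back. Condensins then compact the chromosomes, kinesins and spindle proteins build and move the spindle, kinetochores attach chromosomes to it, and the anaphase-promoting complex ends the process by marking cyclins and securin for destruction. Most of these genes are transcribed in a wave late in the cycle, whereas most long-term blood stem cells are quiescent and multipotent progenitors divide more often. In bulk RNA, a larger share of cells in this phase and more of these transcripts per cell cannot be told apart.

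The late-cycle wave is known to depend on 2 short promoter elements, the cell cycle genes homology region (CHR), bound by the MuvB complex with its partners, and the CCAAT box, bound by the factor NF-Y. RefSeq promoter windows on GRCm38.p6, from 250 bases before to 50 after each annotated start, were matched by symbol for 47 of the 57 members, in 49 windows. The CHR was searched as TTTGAA or TTCGAA and the CCAAT box as CCAAT, on both strands. The letters of both motifs overlapped in 1 member window. A CHR match lay in 37 of the 49 member windows (75.5%), against 19.2% of all 32851 windows and 14.6% of the 12629 windows of genes tested here. The share that held a CHR match within 50 bases of the start was 67.3% for members and 5.31% for all windows. A CCAAT match lay in 36 member windows (73.5%), against 37.4% of all windows, and both motifs together in 32 (65.3%), against 7.52%. These are descriptions of letters in a window, not of bound sites.

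The 130 bases before the start are shown for members that were higher in both circulating and irradiated cells than in endogenous cells. They run 5′ to 3′ on the strand of the gene, with CHR matches (6 letters) and CCAAT or ATTGG matches (5 letters) in capitals. Cdk1 (chr10:69352913-69353042, minus strand) and Cdc20 (chr4:118437344-118437473, minus strand) are shown because both motifs lie before the start. Cdca8 (chr4:124936918-124937047, minus strand) and Cenpa (chr5:30666756-30666885, plus strand) are shown because CCAAT matches lie before the start while the CHR match lies after it, at bases +14 and +17, outside the printed stretch. Cdca8 has a further CCAAT match at +19, also outside it, which overlaps the CHR match. Birc5 (chr11:117849107-117849236, plus strand) is shown because neither motif was found in its window.
Cdk1: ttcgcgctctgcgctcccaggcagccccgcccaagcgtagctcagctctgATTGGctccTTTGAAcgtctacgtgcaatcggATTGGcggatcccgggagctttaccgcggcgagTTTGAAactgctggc
Cdc20: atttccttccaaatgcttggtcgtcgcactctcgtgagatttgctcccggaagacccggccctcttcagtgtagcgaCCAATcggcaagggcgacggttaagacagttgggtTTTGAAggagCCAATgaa
Cdca8: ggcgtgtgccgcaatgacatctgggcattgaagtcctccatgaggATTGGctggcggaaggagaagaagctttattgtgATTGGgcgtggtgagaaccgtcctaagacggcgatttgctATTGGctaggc
Cenpa: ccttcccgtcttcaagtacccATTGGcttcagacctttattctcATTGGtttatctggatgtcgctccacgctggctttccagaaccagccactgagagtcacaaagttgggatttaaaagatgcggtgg
Birc5: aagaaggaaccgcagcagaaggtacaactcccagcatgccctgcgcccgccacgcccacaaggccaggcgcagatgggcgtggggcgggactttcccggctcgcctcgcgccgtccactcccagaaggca
The Cdk1 stretch holds CHR matches that begin at bases -71 and -15, each placed after a CCAAT match on the opposite strand, at -80 and -48. The Cdc20 stretch holds its CHR match at -18, between CCAAT matches at -53 and -8.

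**Figure D1:**
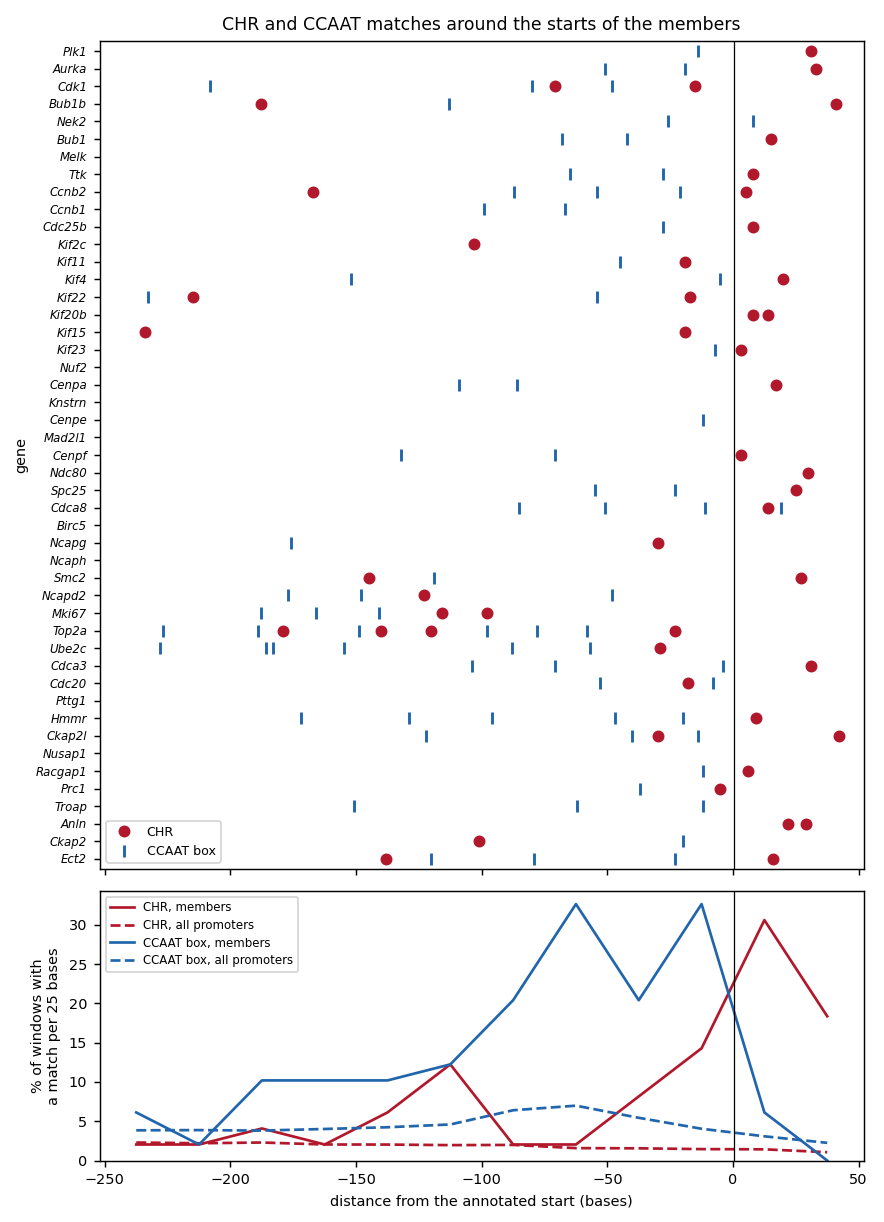
Top, the first base of each CHR match (red circles) and CCAAT match (blue bars) by distance from the annotated start in bases, for the 47 members with a window (the window of lowest coordinate where a gene has several). Bottom, the percent of windows with a match in each stretch of 25 bases, for members (solid) and all promoters (dashed): member CHR matches gather on either side of the start and CCAAT matches mostly upstream of it.

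Library depth, recovered from the values, ran from 14065855 to 27012345 estimated counts, and no member was at a count of 0 in any library. The sorting genes Ly6a, which encodes Sca-1, and Kit, and the leukocyte gene Ptprc, were present in all libraries. Kit fell in circulating cells, at 379 ± 45.1 against 878 ± 137 in endogenous cells (limma adjusted p = 0.0026), and was 587 ± 31.3 in irradiated cells. Circulating replicate 2 had the lowest depth and 560 genes at a count of 0, against 15 to 206 in the other libraries. It also stood apart in some markers of other cells. The T lineage gene Cd2 was 42.3 against 1.92 and 4.90 in circulating replicates 1 and 3, and Cd3g was 31.0 against 1.11 and 5.29. The dendritic cell gene Xcr1 was 118 against 24.1 and 30.8. Its summed T lineage markers (231) and B lineage markers (317) were the highest of the 9 libraries. Other markers did not stand apart: the T lineage gene Lck was 101 there and 98.3 in replicate 1. Its dendritic cell sum (601) lay between those of replicates 1 (852) and 3 (447), as did Flt3 (377, against 766 and 342), and Bst2 was lowest of the group (47.8). The part of these cells in its lower mitosis values was not tested, and member counts are given with and without it. No label ties replicates to separate mice, so the spread behind each p-value is that of these samples and may be technical. Values below are the deposited normalised values, means are given ± SD with n = 3, and differences are of log2(value + 1), which understates changes of low genes.

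Set against each gene's endogenous mean, the median member stood at 0.89, 0.59 and 1.09 log2 units in circulating replicates 1, 2 and 3, and at 0.86, 0.54 and 0.81 in irradiated replicates 1, 2 and 3. The median over all genes tested lay between -0.017 and 0.007 in those libraries. Circulating replicate 2 and irradiated replicate 2 were the lowest libraries of their groups. Circulating replicate 2 had the lowest value of its group in 44 of 57 members, and irradiated replicate 2 in 49, where these libraries were lowest for 36.2% and 33.9% of all genes tested. Circulating replicate 3 was the highest of its group in 34 members, and for 35.2% of all genes tested. The members also varied less between replicates than genes at large: the median SD was 0.276 log2 units for circulating, 0.178 for irradiated and 0.133 for endogenous libraries, against 0.382, 0.213 and 0.262 over all genes tested. Those genes were not matched to the members for expression level, so the smaller SD is not shown to be particular to the members.

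**Figure D2:**
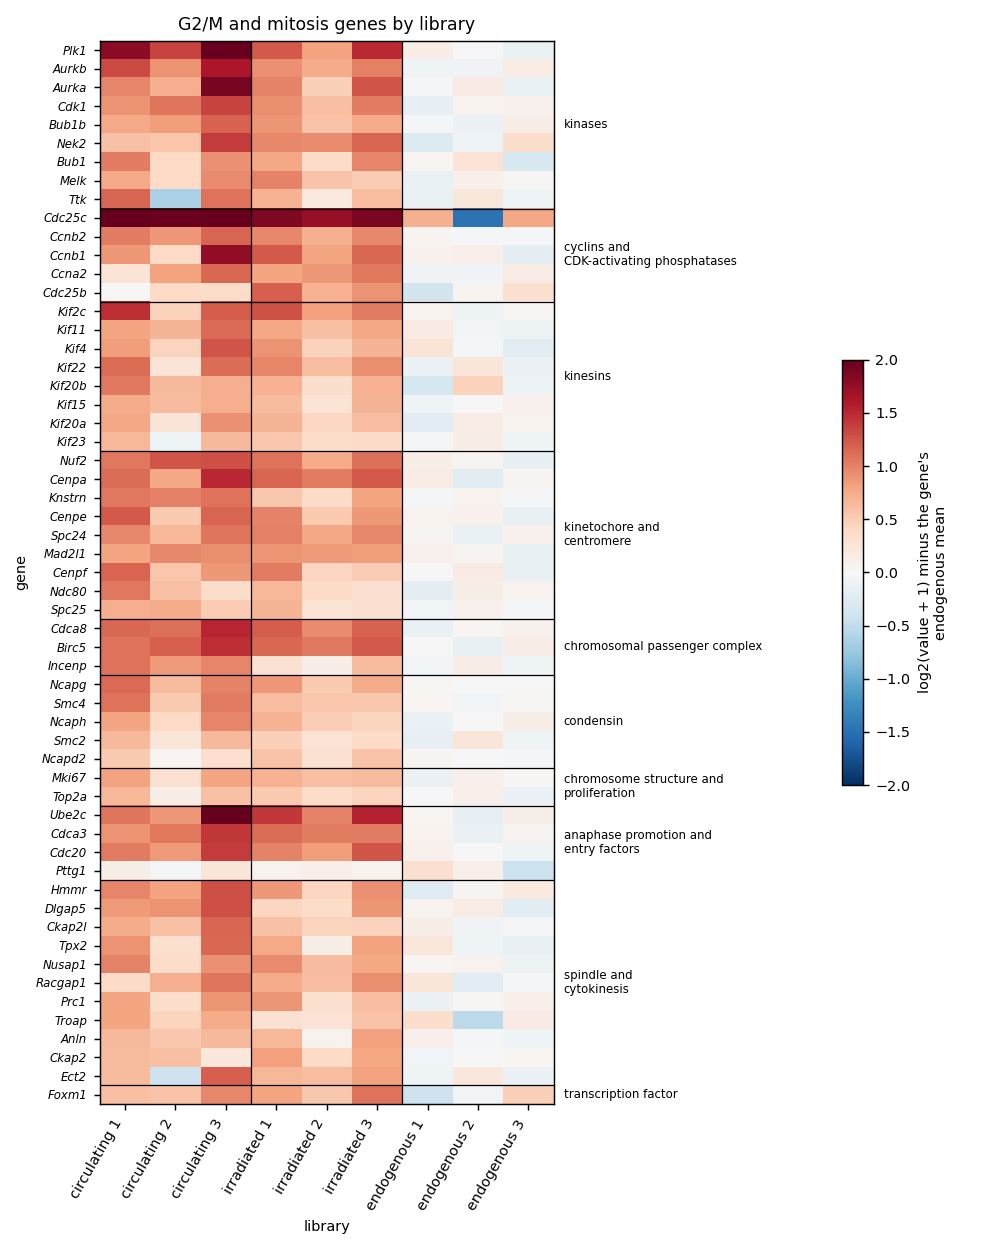
Each row is a member, grouped by role, and each column a library; colour is log2(value + 1) minus the gene's endogenous mean, with the scale ending at -2 and 2. The 6 circulating and irradiated libraries are shifted upward in nearly every row, more weakly in replicate 2 of each group, while Pttg1 shows no such shift.

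The series was designed to compare the transcriptome of circulating LSK cells with that of other LSK cells. In the fit reported here, the comparison with endogenous cells gave the most calls. In circulating cells 41 of the 57 members rose, 16 missed the threshold and 0 fell (limma on all 13771 genes, adjusted p under 0.05). Of all genes tested, 5.33% were called higher and 3.3% lower. The median log2 difference of the members was 0.85, which is 1.80-fold, against -0.04 over all genes, and all 57 values were above 0. The groups did not overlap in 50 members, where 14.6% of all genes were higher without overlap. Rising members were found in every role except the transcription factor Foxm1, from 9 of 9 kinetochore and centromere genes and 7 of 8 kinesins to 5 of 9 kinases and 6 of 11 spindle and cytokinesis genes. The number called fell to 29 with sample weights, to 20 when only these groups were fitted and to 26 when values were scaled by library size alone. Over all genes that scaling gave 340 higher and 821 lower calls, where the fit reported here gave 734 and 455. Without circulating replicate 2 it was 47, with a median of 0.99, and without circulating replicate 3 it was 25. It was 20, 22 and 23 without endogenous replicates 1, 2 and 3.

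Irradiated LSK cells, which share the endogenous controls with that comparison, gave fewer calls in the fit reported here. Here 10 members rose, 47 missed the threshold and 0 fell, where 0.472% of all genes were called higher and 0.131% lower. The median log2 difference was 0.71, or 1.63-fold, against -0.01 over all genes, and all 57 values were again above 0. The groups did not overlap in 50 members (15.2% of all genes). The 10 were Birc5, Ccnb2, Cdc20, Cdca3, Cdca8, Cdk1, Cenpa, Mad2l1, Nuf2 and Spc24, and each was also called in circulating against endogenous cells. The count depended on the setting: it was 43 with sample weights, 38 when only these groups were fitted and 18 with a stricter filter on low values. With sample weights circulating against endogenous cells gave 29, and with only its groups fitted 20, so the order of the comparisons reversed there. For irradiated against endogenous cells, leaving out circulating replicate 1, 2 or 3 gave 20, 23 or 21. Leaving out irradiated replicate 1 or 3, or endogenous replicate 1 or 2, gave 0, leaving out irradiated replicate 2 gave 6, and leaving out endogenous replicate 3 gave 3. The median stayed between 0.67 and 0.80 in these fits.

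Circulating and irradiated LSK cells were then compared with each other. By limma 0 of the 57 members were called, and 7 had an unadjusted p under 0.05. With voom on recovered counts 0 were called as well, and without circulating replicate 2 there were 0 calls, 11 members at an unadjusted p under 0.05 and a median of 0.24. Among all genes, 0.0218% were called higher and 0.00726% lower. The median log2 difference was 0.10, with 42 values above 0, and 4 members were higher and 1 lower without overlap, where the shares over all genes were 7.46% and 9.26%. The 95% interval of the difference lay within 1 log2 unit of 0 in 54 members and reached beyond it in Plk1 (0.11 to 1.22), Cdc25b (-1.18 to -0.18) and Cdc25c (-0.72 to 1.40). The median half-width of these unadjusted intervals was 0.40. Differences as large as 0.67 in Plk1 and -0.68 in Cdc25b were not called after adjustment.

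**Figure D3:**
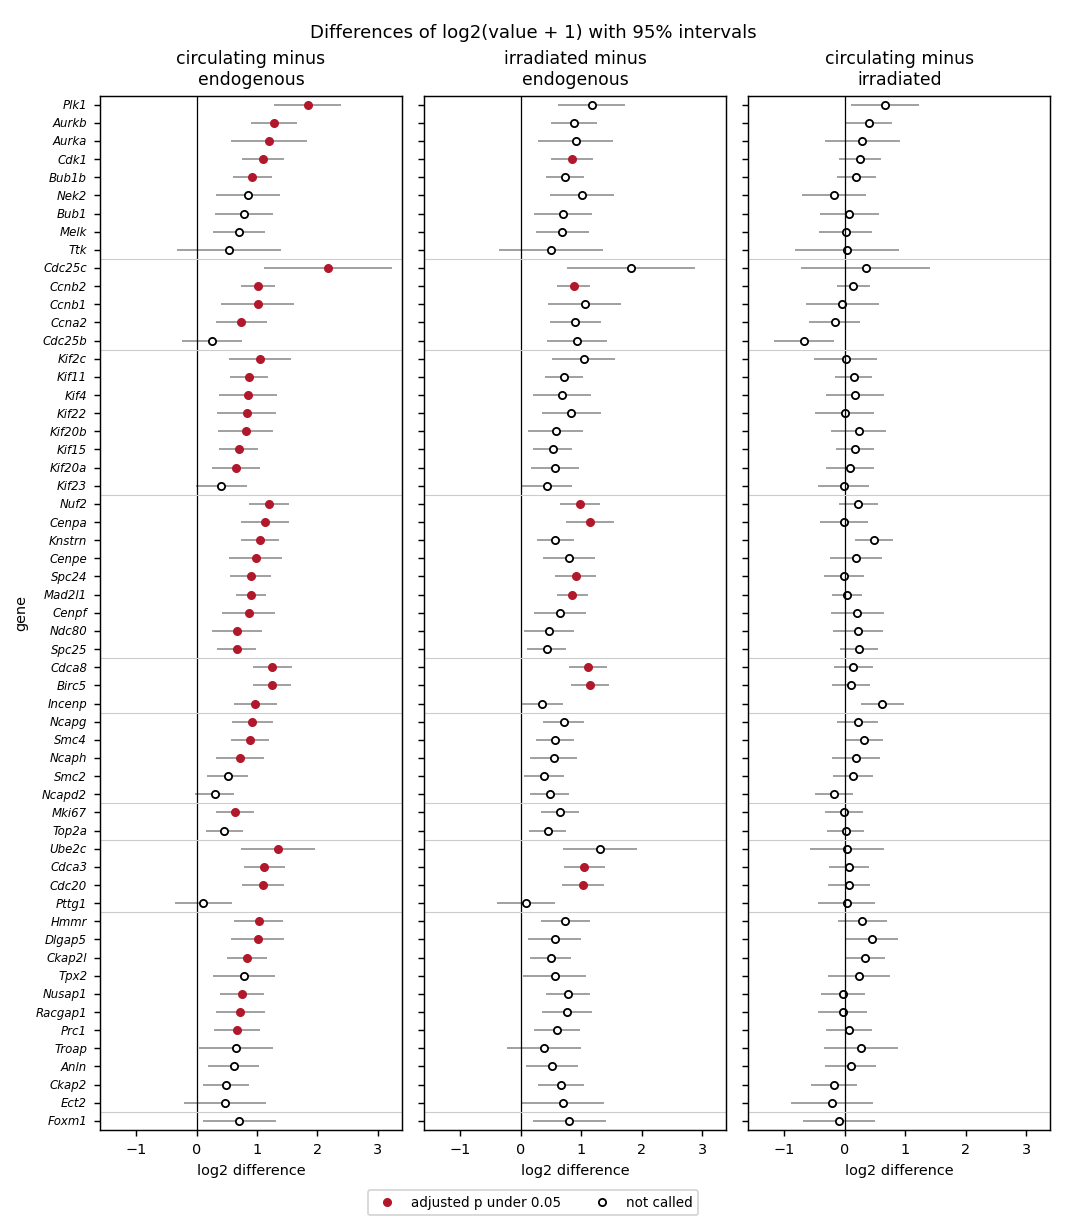
Difference of log2(value + 1) for each member with its 95% interval, in circulating minus endogenous, irradiated minus endogenous and circulating minus irradiated cells; filled red points had a limma adjusted p under 0.05. All points of the left and middle panels lie above 0, with 41 and 10 filled, and the right panel has 0 filled and is spread around 0.10.

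Among the kinases, 5 of 9 rose in circulating cells and 1 in irradiated cells, with median log2 differences of 0.92 and 0.85 from endogenous cells. Plk1, the Polo-like kinase that acts from mitotic entry to cytokinesis, is on chromosome 7 from 122159439 to 122169873 and stood at 134, 98.5 and 202 in circulating replicates 1, 2 and 3, 90.2, 67.2 and 109 in irradiated replicates and 41.7, 37.9 and 34.8 in endogenous replicates. All endogenous libraries were lowest, and circulating replicate 2 lay within the irradiated range. The difference of circulating from endogenous cells was the largest among the kinases (log2 difference 1.84, SE 0.25, limma adjusted p = 0.0048). In irradiated cells it did not pass (log2 difference 1.17, SE 0.25, limma adjusted p = 0.064). Cdk1, the kinase that drives entry into mitosis, was 237, 268 and 328 in circulating, 244, 193 and 259 in irradiated and 114, 134 and 135 in endogenous replicates. Every circulating and irradiated library was above every endogenous library, and Cdk1 was the kinase called in both comparisons (log2 difference 1.11, SE 0.16, limma adjusted p = 0.0058 for circulating cells and 0.85, adjusted p = 0.040, for irradiated cells). The Aurora kinase genes Aurka, of the spindle poles, and Aurkb, of the centromere, rose in circulating cells by 1.20 and 1.28 log2 units, as did Bub1b, of the spindle checkpoint, by 0.92. Ttk, a kinase that recruits the checkpoint to unattached kinetochores, was at 124, 34.5 and 117 in circulating and 49.4, 63.7 and 51.2 in endogenous replicates. Its circulating replicate 2 lay below every other library, the groups overlapped, and the difference did not pass (log2 difference 0.54, SE 0.39, limma adjusted p = 0.41). Bub1, Melk and Nek2 did not pass in either comparison with endogenous cells, although every circulating library was above every endogenous library in each of them.

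Of the 5 cyclins and CDK-activating phosphatases, 4 rose in circulating cells and 1 in irradiated cells. Ccnb2, a B-type cyclin, was 284, 257 and 314 in circulating, 272, 229 and 273 in irradiated and 146, 137 and 137 in endogenous replicates. Its endogenous libraries were close together and well below the rest (log2 difference 1.02, SE 0.12, limma adjusted p = 0.0027 for circulating and 0.88, adjusted p = 0.014, for irradiated cells). Ccnb1, the main cyclin partner of CDK1 at mitotic entry, ranged more widely in circulating cells (462, 333 and 868) and rose there by 1.01 with adjusted p = 0.045 by limma. Cyclin A, encoded by Ccna2, rose by 0.74.

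The CDC25 phosphatase genes differed in pattern. Cdc25c, on chromosome 18 from 34732993 to 34751533, had the largest difference of all members: 55.6, 44.7 and 56.4 in circulating, 41.7, 38.3 and 42.4 in irradiated and 18.2, 3.2 and 19.2 in endogenous replicates (log2 difference 2.17, SE 0.48, limma adjusted p = 0.024). Endogenous replicate 2 was far below the other endogenous libraries, and without it the log2 difference was 1.43 (limma adjusted p = 0.017), below that of Plk1 at 1.84 in the same fit. Moreover, 12.7% of the exon bases of Cdc25c overlap a gene on the other strand, whose reads this unstranded library kit does not separate. Cdc25b was highest in irradiated cells: it stood at 79.8, 56.2 and 64.5 in irradiated replicates, above every circulating (34.1, 45.4 and 44.5) and every endogenous library (26.2, 35.4 and 43.1). Neither difference passed after adjustment (log2 difference -0.68, SE 0.23, limma adjusted p = 0.32 for circulating against irradiated, 0.93 and 0.098 for irradiated against endogenous). Cdc25b was the 1 member lower without overlap in circulating than in irradiated cells.

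**Figure D4:**
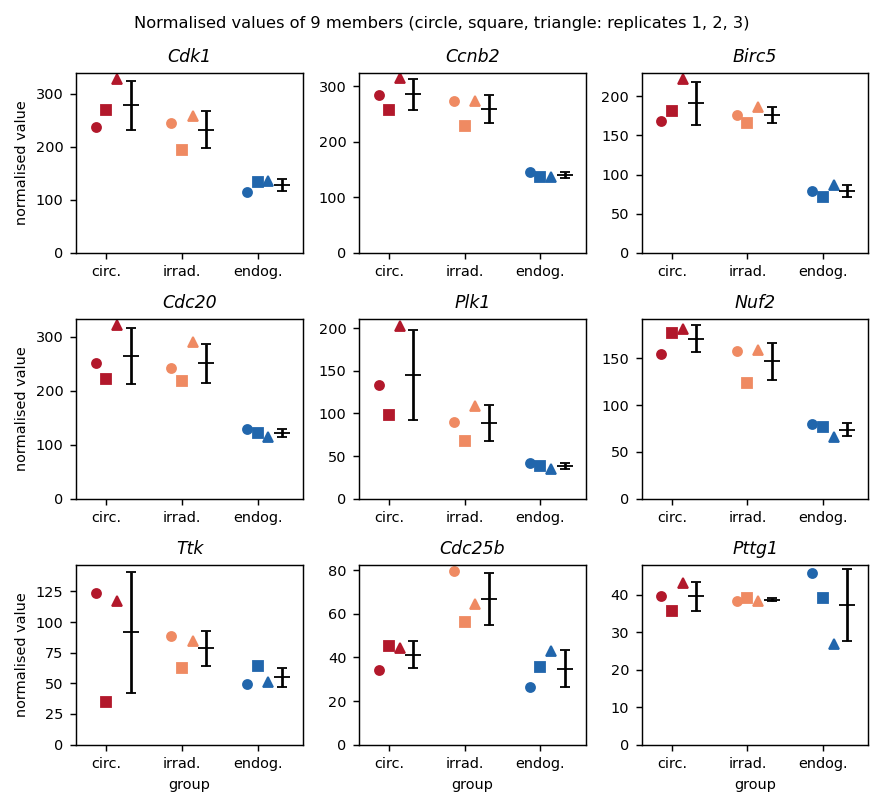
Normalised values in each library (circles, squares and triangles for replicates 1, 2 and 3) with the mean ± SD beside them, for 9 members; each axis starts at 0. Cdk1, Ccnb2, Birc5, Cdc20, Plk1 and Nuf2 have their 3 endogenous libraries lowest, Ttk has its lowest value in circulating replicate 2, Cdc25b is highest in irradiated cells, and the Pttg1 groups overlap.

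Kinesins are motor proteins that slide, push or disassemble spindle microtubules. Of 8, 7 rose in circulating cells and 0 were called in irradiated cells, with medians of 0.82 and 0.63. Kif2c, which depolymerises microtubules at kinetochores, was 146, 71.8 and 121 in circulating, 127, 91.7 and 107 in irradiated and 54.0, 48.2 and 52.9 in endogenous replicates (log2 difference 1.05, SE 0.24, limma adjusted p = 0.024). The endogenous libraries were lowest, and circulating replicate 2 was below every irradiated library. Kif11, which pushes the spindle poles apart, rose by 0.86. Kif23, a motor of the central spindle in cytokinesis, was the kinesin that did not pass: circulating replicate 2 (99.3) lay within the endogenous values (103, 115 and 99.1), while the other circulating libraries stood at 167 and 166. For Kif20a, 29.3% of exon bases overlap Cdc23 on the other strand, so its value (0.65, called) includes reads that cannot be told apart from that gene.

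Of the kinetochore and centromere genes, 9 of 9 rose in circulating cells and 4 in irradiated cells (medians 0.90 and 0.79). Nuf2 encodes a subunit of the NDC80 complex, which holds microtubules at the kinetochore. It was 154, 177 and 181 in circulating, 157, 124 and 159 in irradiated and 79.4, 76.2 and 65.5 in endogenous replicates (log2 difference 1.20, SE 0.15, limma adjusted p = 0.0027 for circulating and 0.98, adjusted p = 0.017, for irradiated cells). All 4 genes of that complex rose in circulating cells, with log2 differences of 0.90 for Spc24, 0.66 for Spc25 and 0.67 for Ndc80. Ndc80 passed only just (limma adjusted p = 0.0499). Spc24, called in irradiated cells too (0.91), was 120.1, 97.1 and 129 in circulating, 123, 105 and 119 in irradiated and 63.4, 55.4 and 64.7 in endogenous replicates. Spc25, the smallest rise of this role, was 186, 188 and 159.8 in circulating, 181, 135 and 140.4 in irradiated and 108, 119 and 109 in endogenous libraries. For both genes the endogenous libraries were the lowest of the 9. Mad2l1, which encodes the checkpoint protein MAD2, had replicates close together, at 265, 297 and 293 in circulating, 282, 277 and 273 in irradiated and 162, 159 and 138 in endogenous replicates (0.90 and 0.86 from endogenous cells). Cenpa, the histone H3 variant that marks centromeres, was 202, 159.7 and 265 in circulating, 209, 192 and 219 in irradiated and 103, 80.1 and 96.8 in endogenous libraries (1.13 and 1.14). Circulating and irradiated libraries of both genes overlapped. Knstrn, a kinetochore protein, was higher in circulating (141, 137 and 144) than in irradiated replicates (98.7, 88.1 and 117) without overlap, but this difference did not pass (log2 difference 0.48, SE 0.14, limma adjusted p = 0.29).

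The chromosomal passenger complex corrects wrong attachments and guides cytokinesis. Its members Birc5, Cdca8 and Incenp all rose in circulating cells, and Birc5 and Cdca8 in irradiated cells. Birc5, which encodes survivin and lies on chromosome 11 from 117849251 to 117855743, was 169, 182 and 222 in circulating, 177, 166 and 187 in irradiated and 79.1, 71.6 and 87.2 in endogenous replicates. Circulating and irradiated libraries overlapped with each other and lay above every endogenous library. Birc5 had the smallest adjusted p of the members in irradiated against endogenous cells (log2 difference 1.15, SE 0.14, limma adjusted p = 0.0089). Cdca8, which encodes borealin, was 229, 222 and 298 in circulating, 239.8, 200.2 and 235 in irradiated and 94.3, 107 and 109 in endogenous replicates (1.25 and 1.11 from endogenous cells). Incenp, the scaffold of the complex, had another pattern: it was 146, 124 and 136 in circulating replicates, above every irradiated (84.1, 74.7 and 106) and endogenous library (65.8, 74.7 and 64.5), and the last 2 groups overlapped. Its difference between circulating and irradiated cells had the smallest unadjusted p of the members in that comparison and did not pass (log2 difference 0.62, SE 0.16, limma adjusted p = 0.24).

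Condensins, the ring-shaped motors that compact chromosomes, had 3 of 5 genes rising in circulating cells, 0 called in irradiated cells, and medians of 0.72 and 0.54. Ncapg was 211, 148 and 191 in circulating, 175, 138 and 159.5 in irradiated and 96.4, 95.1 and 94.6 in endogenous replicates (log2 difference 0.92, SE 0.15, limma adjusted p = 0.0089). The core ATPase gene Smc4 rose by 0.88, whereas its partner Smc2 (0.51) and the regulatory subunit gene Ncapd2 (0.30) did not pass. Ncapd2 had 234, 166 and 205 in circulating against 168, 161 and 158 in endogenous replicates, and circulating replicate 2 lay among the latter. Smc2 had 356, 266 and 356 against 201, 269 and 213, with the same library inside the endogenous range. The proliferation marker Mki67 was 396, 280.0 and 391 in circulating, 366, 344 and 353 in irradiated and 208, 242 and 229.7 in endogenous replicates, without overlap with the last, and rose in circulating cells (log2 difference 0.63, SE 0.14, limma adjusted p = 0.025). Top2a, the topoisomerase that untangles sister chromosomes, was 801, 550.1 and 763 in circulating, 728, 650.3 and 688 in irradiated and 509.8, 544 and 466 in endogenous libraries, and its difference missed the threshold (0.46, adjusted p = 0.067 by limma).

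Of 4 anaphase promotion and entry factors, 3 rose in circulating cells and 2 in irradiated cells. Cdc20, the activator of the anaphase-promoting complex, was 251, 221 and 322 in circulating, 242, 219 and 291 in irradiated and 129, 122 and 114 in endogenous replicates (log2 difference 1.10, SE 0.16, limma adjusted p = 0.0058 for circulating and 1.03, adjusted p = 0.018, for irradiated cells). Cdca3, which promotes the destruction of the mitotic brake WEE1, was called in both comparisons too (1.12 and 1.05), with 127, 139.8 and 180.0 in circulating, 147, 137 and 137 in irradiated and 70.7, 61.2 and 69.9 in endogenous libraries. Endogenous libraries were the lowest for both genes. Ube2c, the ubiquitin-conjugating enzyme of the same complex, was 188, 162 and 388 in circulating, 237, 177 and 259 in irradiated and 91.2, 79.3 and 96.2 in endogenous replicates. Its differences from endogenous cells were 1.35 in circulating cells, which passed, and 1.31 in irradiated cells, which did not (limma adjusted p = 0.019 and 0.062), and 22.8% of its exon bases overlap a gene on the other strand. Pttg1, which encodes securin, the inhibitor of separase, had the smallest difference of all members in both comparisons with endogenous cells. It was 39.7, 35.7 and 43.3 in circulating, 38.5, 39.2 and 38.4 in irradiated and 45.9, 39.1 and 26.8 in endogenous replicates. All groups overlapped, and the 95% interval of the difference between circulating and endogenous cells was -0.36 to 0.59, below the median member at 0.85. Neither motif was found in its promoter window. The same held for Birc5, Mad2l1 and Nuf2, which were called in both comparisons. It also held for Knstrn, Ncaph and Nusap1, called in circulating cells, and for Melk, called in neither comparison.

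Of 11 spindle and cytokinesis genes, 6 rose in circulating cells and 0 were called in irradiated cells, with medians of 0.73 and 0.61. Hmmr, a microtubule-binding protein of the spindle, was 181, 160.1 and 224 in circulating, 166, 124 and 173 in irradiated and 76.4, 94.6 and 105 in endogenous replicates (log2 difference 1.03, SE 0.18, limma adjusted p = 0.011). Ckap2l, Dlgap5, Nusap1, Prc1 and Racgap1 were the others that rose. Ect2, the exchange factor that activates RhoA for the cleavage furrow, had 159, 76.7 and 234 in circulating and 96.2, 118 and 93.6 in endogenous replicates. As with Ttk, circulating replicate 2 was the lowest of all libraries, and the difference did not pass (0.47, adjusted p = 0.35 by limma). Tpx2, the Aurora A activator, had 231, 154 and 276 against 145, 116 and 112 and did not pass either (0.79, adjusted p = 0.060, limma). In 6 of the 7 members whose circulating and endogenous groups overlapped, circulating replicate 2 was at or below the highest endogenous library. Foxm1, the transcription factor of the late-cycle wave, was 26.4, 26.0 and 34.3 in circulating, 30.5, 25.4 and 37.5 in irradiated and 12.6, 16.4 and 24.2 in endogenous replicates. Both differences from endogenous cells were positive and neither passed (0.71 and 0.81, adjusted p = 0.13 and 0.19, limma).

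The members with and without a motif had similar medians, given without a test. The median log2 difference of circulating from endogenous cells was 0.83 in the 35 members with a CHR match and 0.87 in the 12 without, and 0.85 in the 34 with a CCAAT match and 0.76 in the 13 without. In irradiated cells these medians were 0.70, 0.79, 0.73 and 0.58. Among the 37 members that share no exon base with another gene, 27 rose in circulating and 8 in irradiated cells.

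A further 97 genes of the same machinery, outside the members, were read for context. In circulating cells 21 of them (21.6%) rose, 75 missed the threshold and 1 fell (median 0.37, 79 above 0). Over all genes 5.33% rose and 3.3% fell. In irradiated against endogenous cells 2 (2.06%) rose and 0 fell (median 0.42, 81 above 0), where 0.472% of all genes rose and 0.131% fell. The 30 further kinetochore and centromere genes had 11 rising and a median of 0.58, and 20 genes listed under mitotic entry brakes and the anaphase-promoting complex had a median of 0.21. The 3 of those 20 that rose were Bora, an activator of PLK1 (0.93), Cdca2 (0.63) and the kinase gene Pbk (0.54). The brakes Wee1 and Pkmyt1, the gene Fbxo5 and the listed subunits of the complex were not called. The 5 largest rises were in Gtse1 (30.3 ± 10.4 in circulating against 8.76 ± 3.31 in endogenous cells, log2 difference 1.67), the kinesin Kif18b (89.1 ± 10.9 against 37.9 ± 7.84, 1.22), the spindle protein Tacc3 (364 ± 47.4 against 158 ± 12.9, 1.20), the kinetochore protein Ska1 (43.3 ± 8.26 against 19.0 ± 1.96, 1.13) and the centromere protein Cenpu (53.3 ± 10.03 against 24.0 ± 0.525, 1.10). Tacc3 stood at 302 ± 22.9 in irradiated cells, and with Cdca5, which protects sister cohesion, it was called in irradiated cells. A list of 15 genes held those of the MuvB complex, its partners and NF-Y, along with E2f7 and E2f8. Of these 15, 1 rose, 1 fell and 13 were not called, with a median of 0.12. The share called higher, 6.67%, was near the 5.33% over all genes. Mybl2, the activating partner, rose (1.05). Rbl2, the pocket protein of the repressive form in quiescent cells, fell by 0.67 on the log2 scale (92.7 ± 6.00 against 149 ± 25.8). Another pocket protein gene, Rbl1, was higher without overlap and was not called (145 ± 5.14 against 117 ± 9.47, 0.32). A CHR match lay in 45.3% of the 95 windows found for 80 of these 97 genes.

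Myeloid progenitor markers moved in the same direction as the mitosis genes. For the marker counts that follow, the shares over all genes were 5.33% higher and 3.3% lower in circulating against endogenous cells. In irradiated against endogenous cells they were 0.472% and 0.131%. Of 12 myeloid progenitor markers, 7 rose in circulating cells and 5 in irradiated cells, and their summed value was 13590 to 41074 in circulating, 8184 to 17126 in irradiated and 2478 to 3484 in endogenous libraries. Mpo alone was 9410 to 28138, 5365 to 11941 and 1648 to 2334 in those groups, so the myeloid sum ranks libraries largely by this gene. None of the 12 markers was at 0 in any library. Of 11 measured stem cell markers, 6 fell in circulating and 1 in irradiated cells, with sums of 578 to 751, 873 to 916 and 1212 to 1477. Of 9 erythroid markers, Gata1 and Klf1 rose in circulating cells and 0 in irradiated cells, with sums of 266 to 1131, 252 to 617 and 197 to 224, and the globin gene Hbb-bs was at 0 in 1 library. Car1, which was not called, was 70.8 to 610 of the circulating sums. Within the circulating group, replicate 3 was highest in both the mitosis median and the myeloid sum. The library with the lowest mitosis median, replicate 2, had the middle myeloid sum of 25909, and replicate 1, with the lowest sum, had the middle mitosis median. In irradiated cells replicate 2 was lowest in both, while replicate 1 had the highest median and replicate 3 the highest sum. In circulating against endogenous cells, 2 B lineage and 2 dendritic cell markers rose, 2 neutrophil markers fell, and 0 T lineage, plasma cell or megakaryocyte markers were called. The T lineage sum was nevertheless 231 in circulating replicate 2 against 103 and 71.8 in the other circulating libraries. Plasma cell sums were 1057 to 1787 in circulating, 271 to 1494.5 in irradiated and 356 to 764 in endogenous libraries. Jchain, which was not called, was 839 to 1334, 55.2 to 1054 and 148 to 472 in those groups. The part of these cell types in the rise of the mitosis genes was not tested.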

How the data were processed

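RNA-seq of 9 libraries of sorted LSK cells was analysed from the table the authors deposited. Per the labels' protocols, cDNA came from a low-input SMART-Seq v4 kit and libraries from Nextera XT, which does not mark strand. For the build the submitters' processing notes give mm10, and as tools RSEM 1.3.1, CASAVA and limma, without their order. The deposited values are a normalised signal rather than counts. Per column, 100% of them are (a number with 2 decimals + 0.5) times a constant, within 0.001 of the last step. Estimated counts recovered from this totalled 14065855 to 27012345 per library, and a count of 0 corresponds to a value of 0.0182 to 0.0376. How the authors scaled and filtered is not stated in the labels.

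Symbols came from GENCODE M21 (GRCm38), and 14405 of 14461 genes matched. Genes with a value of at least 1 in at least 3 libraries (13771) were fitted by limma 3.58.1 in R 4.3.3 on log2(value + 1), with trend and robust moderation, all 9 libraries and no covariates. Benjamini-Hochberg adjustment ran over all genes, with calls under 0.05. Intervals are 95% intervals of the moderated fit. The fit was tested on simulated data. Members, gene lists, roles and motifs were chosen with earlier results of these data known. Values per library are given for members called in irradiated against endogenous cells, the largest and smallest difference of circulating from endogenous cells in each role, and up to 4 members called nowhere; others shown were chosen after their values were seen. Tried alternatives were other pseudocounts, filters, scaling, sample weights, voom, the groups fitted, a replicate block and leaving out each library.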

Additional observations from a re-analysis of the deposited data

How the results depend on the processing

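Across 19 alternatives, 56 or 57 of the 57 members kept a positive difference in circulating against endogenous and in irradiated against endogenous cells, with medians from 0.65 to 0.99 and from 0.58 to 0.80. The numbers called were less stable. In circulating against endogenous cells, 41 became 20 with only these groups fitted, 29 with sample weights and 26 with scaling by library size alone. It became 20 to 47 with each library left out. In irradiated against endogenous cells, 10 became 18 with a minimum of 5 in at least 3 libraries, 43 with sample weights, 38 with only these groups fitted, and 0 to 23 with each library left out. In circulating against irradiated cells 0 were called under all 20 alternatives, with 3 to 11 members at an unadjusted p under 0.05. The cause of these shifts was not tested. Scaling by library size alone moved the median of all genes in circulating against endogenous cells to -0.22 and gave 340 higher and 821 lower calls in place of 734 and 455. With the replicate number as a block over all libraries, 17 members were called in irradiated against endogenous cells, 40 in circulating against endogenous and 0 in circulating against irradiated cells. Blocking on the title code shared by circulating and irradiated libraries gave 0. Deviations of same-numbered libraries correlated at 0.050, 0.031 and 0.182 between circulating and irradiated cells. Those of differently numbered libraries ran from -0.167 to 0.106. With so few libraries these values cannot decide whether the numbers pair the samples. The fit reported here used no pairing. Among named members, 15 leave-one-out values and 9 others lost a call in circulating against endogenous cells, and 51 and 0 in irradiated against endogenous cells. None reversed.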
